A study of Mus musculus with 4 samples.

Results

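The genes described here are the cytosolic ribosomal protein genes of the large (60S) ribosomal subunit, measured in B16-F10 cells, a cultured mouse melanoma line, after exposure to an antibody against the receptor TIM3. They were taken as every non-control probe on the array whose gene name began with Rpl or Rplp followed by a digit. This gave 78 probes of 49 genes, among 41174 probes and 27962 gene names in all. Of the 49 genes, 27 had a single probe and 22 had several, and the 78 probes filled 87 spots per array because the Rplp0 probe was printed in 10 spots.

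Each of 4 Agilent 2-colour arrays compared a pair of samples of the same passage. The Cy5 (red) channel held RNA of cells given a goat polyclonal antibody against mouse TIM3 (RnD Systems). The source name of replicate 1 calls it an agonist, and those of replicates 2 to 4 do not. The Cy3 (green) channel held RNA of cells given unspecific goat IgG. Both were given at 15 ug/ml for 2 h in vitro, per the labels. Replicates 1 to 4 came from passages 14, 16, 18 and 19 of the line, which was grown in high-glucose DMEM with serum. The Cy5 treatment of replicate 3 is known from its source name alone, which names the antibody but gives no dose or time. No array had its dyes exchanged, so an effect of the antibody and a difference between the dyes cannot be told apart, and all replicates are passages of a single line.

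Ribosomal proteins of the large subunit surround the ribosomal RNA that forms peptide bonds, line the tunnel through which the new chain leaves and carry the stalk that recruits translation factors. Their mRNAs are among the most abundant in dividing cells and begin with a pyrimidine-rich leader through which their translation is controlled as a group. They have many near-identical processed copies in the genome, and whether such copies add signal to a probe was not tested.

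Values are log2 ratios of Cy5 over Cy3 after background correction and loess normalisation within each array, so a value above 0 means more signal after anti-TIM3. Tested probes were those that the scanner software marked well above background in Cy3 or Cy5 on 3 or more of the 4 arrays. The limma test against 0 was fitted on all 26545 tested probes, and a probe was called higher or lower at a Benjamini-Hochberg adjusted p under 0.05 over all of them. Brightness is the mean log2 intensity of a probe over both channels and all arrays.

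Several genes had probes of very different brightness, and the sequences of the probes the results turn on are given first. All are 60-base probes of the arrays as the deposited files list them, printed 5′ to 3′, with positions in the mouse build mm7 that the files give. Exons and untranslated regions are not marked in the files.

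Rpl7a had the largest difference between probes. Its 3 tested probes are shown because the last 2 lie next to each other and share the 14 bases in capitals, yet gave the highest and the lowest ratio of the gene. The last is shown up to base 38.
Rpl7a A_51_P359862: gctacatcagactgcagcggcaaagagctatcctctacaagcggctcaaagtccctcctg
Rpl7a A_52_P436206: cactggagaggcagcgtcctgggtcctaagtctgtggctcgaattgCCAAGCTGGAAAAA
Rpl7a A_52_P548790: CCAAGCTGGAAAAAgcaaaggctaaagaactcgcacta
They lie on the plus strand at chr2:26918784-26918843, chr2:26920485-26920544 and chr2:26920531-26920589.

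Rpl7 is shown because a bright and a dim probe within the same transcript gave different ratios. No capitals are used. The first is the brightest probe of the gene and the second the dimmest.
Rpl7 A_52_P346326: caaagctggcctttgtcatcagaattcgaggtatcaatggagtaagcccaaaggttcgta
Rpl7 A_51_P496480: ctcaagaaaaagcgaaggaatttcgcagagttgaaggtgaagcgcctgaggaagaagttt
The Rpl7 probes lie on the minus strand at chr1:16291470-16291867 and chr1:16292191-16292250. Coordinates that span more than the probe's own length by over 1 base mean that the probe joins separate stretches of the genome.

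In 4 genes, probe pairs overlapped by 29 to 45 bases but were not identical in the overlap. They are shown with the differing bases in capitals, since each pair gives nearly the same target read by different letters.
Rpl35a A_51_P509107: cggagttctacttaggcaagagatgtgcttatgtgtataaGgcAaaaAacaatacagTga
Rpl35a A_52_P288669: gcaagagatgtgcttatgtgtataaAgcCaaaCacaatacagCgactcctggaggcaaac
Rpl36 A_51_P361875: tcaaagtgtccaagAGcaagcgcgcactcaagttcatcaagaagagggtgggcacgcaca
Rpl36 A_52_P233312: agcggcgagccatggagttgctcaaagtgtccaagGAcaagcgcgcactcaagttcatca
Rpl10 A_51_P495895: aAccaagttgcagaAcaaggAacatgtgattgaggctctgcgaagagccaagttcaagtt
Rpl10 A_52_P171216: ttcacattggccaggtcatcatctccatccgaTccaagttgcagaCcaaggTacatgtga
Rpl29 A_52_P217069: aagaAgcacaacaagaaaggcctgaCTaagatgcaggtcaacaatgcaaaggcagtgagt
Rpl29 A_52_P505977: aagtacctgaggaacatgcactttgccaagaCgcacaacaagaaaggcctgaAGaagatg
The overlap held 4 differing bases of 45 in Rpl35a, 2 of 39 in Rpl36, 3 of 29 in Rpl10 and 3 of 33 in Rpl29. They lie on the plus strand at chr16:32732018-32733213 and chr16:32732033-32733233 for Rpl35a, chr17:54823654-54823795 and chr17:54823633-54823692 for Rpl36, chrX:69659408-69659467 for the first Rpl10 probe (the files give no position for the second), and chr9:106160553-106160612 and chr9:106160526-106160585 for Rpl29.

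The last set shows the brightest member probe (Rpl8), a probe of a 5S RNA-binding protein that was higher on every array (Rpl5) and a probe that was lower on every array (Rpl4), with no capitals.
Rpl8 A_51_P165046: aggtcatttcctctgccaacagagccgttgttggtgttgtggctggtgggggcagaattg
Rpl5 A_51_P183732: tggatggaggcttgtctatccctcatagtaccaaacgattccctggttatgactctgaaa
Rpl4 A_52_P376829: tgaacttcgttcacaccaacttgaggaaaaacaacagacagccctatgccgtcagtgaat
They lie on the plus strand at chr15:76986929-76987807, chr5:107081179-107082086 and chr9:64203185-64203244.

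Most large-subunit genes had a higher signal after anti-TIM3, by small amounts, and the call depended on the brightness of the probe and on the normalisation. Of the 77 tested member probes, 39 were higher, 6 were lower and 32 did not pass (limma), against 14.2% of all tested probes called higher and 13.6% called lower. The 78th, the probe of Rpl3l, a paralog of Rpl3 known from muscle, was not well above background in Cy3 on any array and was not tested. The member probes' median log2 ratio was 0.13, with a range from -0.33 to 0.84, and the median of all tested probes was 0.006. The members' median on the arrays of replicates 1 to 4 was 0.20, 0.05, 0.12 and 0.15. Signs agreed on every array for 51 of the 77 probes, 44 of them above 0 and 7 below, and the SD over arrays had a median of 0.09.

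The normalisation moved the whole group. With the authors' deposited processed signals, 12 member probes were higher and 9 lower, against 10.8% and 8.96% of all tested probes, with a median log2 ratio of 0.01 for the members and for all tested probes. With trends on brightness and base counts removed, 24 were higher and 9 lower, against 13% and 13.1% of all, with a median of 0.06. When loess was replaced by centring every array on its median, no probe of any kind passed limma's test. The members' median was then 0.73 and that of all tested probes 0.15, with replicate 1 apart from the others. On the arrays of replicates 1 to 4 the members' median was -0.11, 1.12, 0.98 and 0.99. That of all tested probes was -0.38, 0.49, 0.38 and 0.25. At an unadjusted p under 0.05 (limma), 50 member probes were above 0 and 0 below, against 968 and 38 of all 26545 tested probes. Of the 39 probes called higher after loess, 32 also had a deposited ratio above 0, and 12 were called higher there too. Of all 45 calls after loess, 28 did not pass in deposited signals, 27 of them higher and 1 lower, and 7 of the 28 turned sign without passing. A further 4 probes, of Rpl3, Rpl7a, Rpl13 and Rpl19, were called lower in deposited signals alone. Directions below are those of the loess values unless deposited signals are named.

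Represented by its brightest probe, a gene was higher in 34 of 48 cases and lower in 2, against 14.8% and 12.8% of all genes. The 2 lower genes, Rpl4 and Rplp0, were at 0.35 and 0.47 with median centring, without passing. Other tested probes of their brightness, between 15 and 16, had a median of 0.71 with median centring. The median over the 48 genes was 0.23. With deposited signals 12 genes were higher and 3 lower, with a median of 0.07, against 10.8% and 8.96% of all tested probes. With the trends removed 22 were higher and 4 lower, with a median of 0.10, against 13% and 13.1% of all tested probes. The medians over all genes in these 2 settings were 0.02 and 0.008. Represented by the dimmest tested probe instead, 24 genes were higher and 6 lower, with a median of 0.13, against 14.2% and 13.6% of all tested probes.

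The stalk is the flexible arm of the large subunit that recruits the translational GTPases. Rplp1 and Rplp2, the paired acidic proteins of the stalk's tip, and Rpl12, at its base, were higher, while Rplp0, which anchors the tip proteins, was lower. Rpl12 had log2 ratios of 0.87, 0.65, 0.63 and 0.69 in replicates 1 to 4. Its mean of 0.71 ± 0.11 (SD, n = 4; limma, adjusted p = 0.000108) corresponds to 1.63-fold, and its deposited ratio was 0.46 and also passed. Rplp1 had ratios of 0.89, 0.41, 0.48 and 0.64. All were above 0, with replicate 1 the highest and replicate 2 the lowest, and the mean was 0.60 ± 0.22 (SD, n = 4; limma, adjusted p = 0.000975).

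Rplp2 had ratios of 0.51, 0.42, 0.43 and 0.30, with a mean of 0.42 ± 0.08 (SD, n = 4; limma, adjusted p = 0.000516). In deposited signals Rplp1 stood at 0.27 (limma, adjusted p = 0.053) and Rplp2 at 0.16 (adjusted p = 0.063), in the same direction without passing. Rplp0 had ratios of -0.09, -0.14, -0.15 and -0.09, averaged over 10 spots on each array. Its mean was -0.12 ± 0.03 (SD, n = 4; limma, adjusted p = 0.0313), and its deposited ratio of -0.26 passed too. The call was lost without replicate 2, 3 or 4 (limma, adjusted p = 0.116, 0.119 and 0.070). The 3 higher stalk genes lay between 16.5 and 16.8 in brightness and Rplp0 at 15.2. The files place the Rplp0 probe on chromosome 8, at 101459316 to 101459375 on the minus strand (mm7), whereas RefSeq places the gene on chromosome 5; the other 76 placed member probes matched RefSeq's chromosome.

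Before correction, red could exceed green for higher and lower genes alike, as for Rpl12 and Rplp0. A dim Rpl22l1 probe, called lower, instead read higher in green than in red on every array. The spots of Rpl12 read 66179, 41094, 42128 and 42736 in Cy3 and 195757, 192699, 170274 and 162130 in Cy5 on the arrays of replicates 1 to 4, in arbitrary scanner units before any correction. Those of Rplp0 read 43438, 22318, 23013 and 23254 in Cy3 and 61613, 55672, 50552 and 46865 in Cy5. Cy5 exceeded Cy3 for both genes on every array, and the normalised ratio is read against the offset between the channels of each array. Over all members the highest signal on an array was 56271 to 101150 in Cy3 and 209031 to 246352 in Cy5, with replicate 1 the highest in both.

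Rpl5 and Rpl11 bind 5S ribosomal RNA as a particle that can inhibit Mdm2, the ubiquitin ligase of p53, and Rpl23 and Rpl26 are further Mdm2- or p53-related ribosomal proteins. All 4 were higher by their brightest probe. Rpl5 had ratios of 0.79, 0.52, 0.49 and 0.48, with replicate 1 apart from the others. Its mean was 0.57 ± 0.15 (SD, n = 4; limma, adjusted p = 0.000451) and its deposited ratio 0.30 passed. Rpl11 had ratios of 0.48, 0.35, 0.31 and 0.37, with a mean of 0.38 ± 0.07 (SD, n = 4; limma, adjusted p = 0.000617), and a deposited ratio of 0.18 that passed.

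Rpl23 had ratios of 0.41, 0.27, 0.33 and 0.46, and a mean of 0.37 ± 0.08 (SD, n = 4; limma, adjusted p = 0.000798). Rpl26 varied more between arrays, with 0.66, 0.19, 0.31 and 0.50, and a mean of 0.42 ± 0.21 (SD, n = 4; limma, adjusted p = 0.00345). The deposited ratios of Rpl23 and Rpl26 were 0.08 and 0.12 and did not pass. Both Rpl11 and Rpl23 also had a dimmer probe below 0 that did not pass, described with the probe pairs.

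Proteins of the subunit core and the exit tunnel differed among themselves. Rpl41, a very short basic peptide at the face between the subunits, had the highest ratio of all members. Its values were 1.04, 0.64, 0.70 and 0.97, all above those of any array of Rpl8, and its mean was 0.84 ± 0.20 (SD, n = 4; limma, adjusted p = 0.000240), or 1.79-fold. Its normalised signal averaged 16.13 ± 0.30 (SD, n = 4) in Cy3 and 16.97 ± 0.37 in Cy5 on the log2 scale. Its deposited ratio was 0.49 and passed.

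Rpl8, near the catalytic centre, had ratios of 0.55, 0.46, 0.54 and 0.54, which lay close together. The mean was 0.52 ± 0.04 (SD, n = 4; limma, adjusted p = 0.000108), and its deposited ratio of 0.23 passed. Rpl17, Rpl23a, Rpl35 and Rpl39, proteins around the tunnel and its exit, had means of 0.34, 0.31, 0.28 and 0.23, each higher on every array and called after loess. Rpl17 spread from 0.18 to 0.52 over the arrays and Rpl35 from 0.22 to 0.37, while Rpl23a stayed between 0.29 and 0.32 and Rpl39 between 0.21 and 0.27. Their deposited ratios were 0.15, 0.002, 0.06 and 0.09, of which none passed.

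Rpl3, a core protein that reaches the catalytic centre, was not called, with 0.11, 0.05, 0.07 and 0.11 and a mean of 0.08 ± 0.03 (SD, n = 4; limma, adjusted p = 0.0974). Its deposited ratio was -0.16 and was called lower (limma, adjusted p = 0.0363), so its sign depends on the normalisation. Rpl10, the late-joining protein that completes the subunit, was at -0.01 ± 0.14 (SD, n = 4) by its brightest probe, above 0 in replicates 1 and 4 and below 0 in replicates 2 and 3. Rpl4, whose loop lines the tunnel, was lower in every replicate, with -0.06, -0.26, -0.27 and -0.34. Its mean of -0.23 ± 0.12 (SD, n = 4; limma, adjusted p = 0.00899) was accompanied by a deposited ratio of -0.25 that passed. The spots of Rpl4 read 34636, 22112, 22277 and 25909 in Cy3 and 49173, 50391, 44740 and 44001 in Cy5, close to the brightness of Rplp0.

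Among the remaining genes, Rpl7a and Rpl38 complete the 6 highest probes. Rpl38, a protein known for its part in the translation of particular developmental mRNAs, had ratios of 0.65, 0.49, 0.49 and 0.51, with a mean of 0.54 ± 0.07 (SD, n = 4; limma, adjusted p = 0.000159). Its deposited ratio was 0.31 and passed. A log2 ratio of at least 1.5-fold, with a call, was reached by 4 probes, those of Rpl41, Rpl7a, Rpl12 and Rplp1. All other calls were smaller. Next in order came Rpl37a at 0.53, Rpl32 at 0.50, Rpl13a at 0.48, Rpl27 at 0.45 and Rpl28 at 0.43. In deposited signals Rpl32 was at 0.16 and did not pass (limma, adjusted p = 0.196), while the other 4 passed. Rpl28 lay between 0.39 and 0.46 on all arrays, whereas Rpl32 ran from 0.29 to 0.73.

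The 6 lowest tested probes ran from -0.33 to -0.12. They belonged to Rpl7, Rpl13, Rpl4, Rpl11, Rpl7l1 and Rplp0, and those of Rpl7, Rpl13 and Rpl11 were dim probes of genes whose brightest probe was above 0. The Rpl11 probe did not pass (-0.18 ± 0.26, SD, n = 4; limma, adjusted p = 0.127), with arrays from -0.52 to 0.04, but did without replicate 3 (adjusted p = 0.046). A dim probe of Rpl22l1, at 6.9 in brightness, was the sixth called lower, at -0.12 ± 0.07 (SD, n = 4; limma, adjusted p = 0.048).

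Paralogs of large-subunit genes differed in direction. Rpl7l1, a nucleolar relative of Rpl7, had a dim probe with -0.10, -0.16, -0.17 and -0.13, lower at -0.14 ± 0.03 (SD, n = 4; limma, adjusted p = 0.0163). Its brighter probe was at -0.11 ± 0.10 and did not pass. The call of the dim probe was lost without replicate 2, 3 or 4 (limma, adjusted p = 0.064, 0.068 and 0.052). Rpl22 was higher at 0.17 ± 0.13 (SD, n = 4; limma, adjusted p = 0.0293), with arrays from 0.05 to 0.33, and was not called without replicate 1 or 4 (adjusted p = 0.089 and 0.095). Rpl22l1, its paralog, stood at 0.12 ± 0.09 by its brightest probe and did not pass (limma, adjusted p = 0.0627; 0.047 without replicate 4). Deposited ratios of these 2 probes were 0.03 and -0.05, and neither passed.

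Rpl36a and its intron-poor relative Rpl36al were both higher by their brightest probes, at 0.17 ± 0.02 (SD, n = 4; limma, adjusted p = 0.00739) and 0.20 ± 0.03 (adjusted p = 0.00422). In deposited signals Rpl36a turned to -0.05, without passing, and Rpl36al stayed at 0.13 (adjusted p = 0.052). The other 2 Rpl36a probes were at 0.05 and -0.03, did not pass, and overlapped each other by 40 identical bases.

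The ratio rose with the brightness of the probe. Of the 23 member probes over 16 in mean log2 intensity, 22 were higher and 0 lower (0 lower at an unadjusted p under 0.05 in limma), with a median ratio of 0.42. Of the 31 between 15 and 16, 16 were higher and 2 lower, with a median of 0.12. Of the 20 between 8 and 15, none was called higher by limma (3 at an unadjusted p under 0.05) and 3 were lower. Of the 3 under 8, the dim probe of Rpl37 was higher at 0.16 ± 0.08 (SD, n = 4; limma, adjusted p = 0.0192), as was the gene's bright probe at 0.14 ± 0.06, although they differ by 8.08 in brightness. In deposited signals these were at 0.25 and -0.008, and neither passed (limma, adjusted p = 0.119 and 0.889).

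Bright probes of other genes, small-subunit ribosomal protein genes among them, were often higher as well. Over 16, 141 of 159 other tested probes were higher (88.7%) and 1 was lower, with a median of 0.31, beside 95.7% of the members. Between 15 and 16, 154 of 375 others were higher (41.1%), with a median of 0.10, beside 51.6% of the members. In the bands of brightness from 8 to 15, others were higher in 12.7% to 16.2% of cases and lower in 14.7% to 22.8%. In deposited signals the members between 15 and 16 were higher in 3 cases and lower in 6, with a median of -0.04. With the trends removed they were higher in 2 and lower in 5, with a median of 0.002. The balance of that band turned for the 375 others too. In deposited signals 6.93% of these others were higher and 14.9% lower, and with the trends removed 16% and 19.7%. In deposited signals the members over 16 were higher in 9 of 23 cases (39.1%), with a median of 0.16, and the others in 27.7%, with a median of 0.07. With the trends removed the shares were 78.3% and 52.2%. Across the 54 member probes over 15, brightness and ratio correlated with Pearson's r of 0.766, and across 534 other probes over 15 with 0.662. Without a limit on brightness, r was 0.527 across the 77 member probes and -0.028 across all 26545 tested probes. These points share the same arrays and dyes and are a description. GC content and ratio had an r of 0.106 across the 77 member probes and of -0.265 across all 26545 tested probes.

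The brightest spots were read in another scan. The scanner software took spots too bright for the regular scan from a scan at low gain and scaled them up, per the flags in the files, from a lowest signal of 19383 to 19668 in Cy3 and 12926 to 19763 in Cy5. Of the 87 member spots, 59 to 70 per array were low-gain in Cy3 and 69 to 71 in Cy5, whereas 626 to 1469 and 1495 to 2000 of all 43379 spots were. No member spot was saturated. Among the 51 member probes read at low gain in both channels on every array, 36 were higher and 2 lower, with a median of 0.22. Among the 15 read at regular gain throughout, 1 was higher and 3 were lower, with a median of 0.009, and among the 11 with mixed scans 2 were higher and 1 lower.

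The same division held for other genes, where 56.0% of 461 probes read at low gain throughout were higher, against 13.2% of 24645 read at regular gain. With all low-gain spots left out, an alternative chosen after seeing the data, 16 member probes remained testable, 1 of them higher and 3 lower. Of all 25060 probes tested that way, 3245 were higher and 3354 lower. Low gain goes with brightness on these arrays, and the part of the scan in the ratios was not tested. Replicate 1 gave the highest ratio in 35 of the 51 low-gain probes and in 10 of the 11 with mixed scans. Its array had 70 low-gain member spots in Cy3 where the others had 59 to 62.

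Where a gene had several tested probes, the brightest was compared with the dimmest on each array. Of 22 member genes, the bright probe gave the higher ratio in 11 and the lower ratio in 0 (limma on the difference, adjusted over all 6053 genes with such probes; 1 at an unadjusted p under 0.05), and 11 did not pass. Over all 6053 genes the bright probe was higher in 21% and lower in 14%, with a median difference of 0.02, beside 0.15 in the members. All 8 members whose bright probe lay over 16 were among the 11, with a median difference of 0.45, and 48 of 63 other genes with so bright a probe behaved likewise, 5 in the opposite way. Of the 14 member genes with a bright probe up to 16, 3 passed. Without replicate 2 the count was 7. With deposited signals it was 5, where 13.5% of all genes had the bright probe higher and 9.57% lower. With the trends removed it was also 5, against 21.5% and 12.1% of all, and with median centring it was 4, against 2.64% and 0.0826%.

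Rpl7a had the largest difference. Its bright probe, A_52_P436206, had ratios of 1.11, 0.73, 0.80 and 0.64 and a mean of 0.82 ± 0.20 (SD, n = 4; limma, adjusted p = 0.000265). The dim probe, A_52_P548790, which begins with the last 14 bases of the bright one, had 0.21, -0.28, -0.26 and -0.10, with a mean of -0.11 ± 0.23. The groups of arrays did not overlap, and the difference was 0.89, 1.01, 1.06 and 0.74, with a mean of 0.93 (95% confidence interval 0.79 to 1.06; limma, adjusted p = 0.000453). The first printed probe was at 0.02 ± 0.04.

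In raw signal, the bright Rpl7a probe read 55396, 35131, 34914 and 44902 in Cy3 and 191359, 172492, 157446 and 165652 in Cy5. The dim probe read 31806, 23319, 22897 and 22062 in Cy3 and 54536, 52880, 46213 and 43861 in Cy5. All of these spots were low-gain in both channels, so the probes of this pair did not differ in the scan used. The difference was 0.68 in deposited signals (limma, adjusted p = 0.0126) and 0.90 with the trends removed (adjusted p = 0.000681).

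Rpl19, an early-assembling protein near the subunit interface, differed by 0.51 (95% confidence interval 0.42 to 0.60; limma, adjusted p = 0.000561). Its bright probe had 0.60, 0.32, 0.29 and 0.45 and its dim probe 0.05, -0.22, -0.18 and -0.02, without overlap. In deposited signals the bright probe was at 0.18 (limma, adjusted p = 0.056) and the dim one at -0.24 (adjusted p = 0.036). Both were read at low gain on every array, and the difference was 0.42 in deposited signals (adjusted p = 0.0126). Rpl7 differed by 0.43, with 0.42, 0.45, 0.39 and 0.46 on the arrays (limma, adjusted p = 0.000706). Its bright probe was at 0.10 ± 0.11 and did not pass, its dim probe was lower at -0.33 ± 0.12 (adjusted p = 0.00204), and another probe of nearly the same brightness as the bright one was higher at 0.27 ± 0.11 (adjusted p = 0.00369). That probe was at 0.07 in deposited signals and at 0.08 with the trends removed, and passed in neither.

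Rpl23 differed by 0.47, with 0.42 to 0.58 on the arrays (limma, adjusted p = 0.00085), between a bright probe at 0.37 and a probe of 13.8 in brightness at -0.10. Rpl13 differed by 0.42, with a wide spread from 0.15 to 0.81 (limma, adjusted p = 0.012). Its dim probe, at 8.7 in brightness and listed under a cDNA clone accession, was at -0.30 ± 0.29 and had the largest SD over arrays of the 77 tested probes. Its call as lower was lost without replicate 1, 2 or 4 (limma, adjusted p = 0.105, 0.058 and 0.088) and in deposited signals (-0.34, adjusted p = 0.158). The bright probe, higher at 0.13 after loess, was at -0.11 in deposited signals and did not pass. Another Rpl13 probe of 15.9 in brightness was at 0.02 ± 0.06. Rpl11 differed by 0.56, from 0.27 to 0.90 on the arrays (limma, adjusted p = 0.00416). The dim Rpl11 probe, at chr4:135428479-135428538 (mm7, minus strand), lies inside the gap that the bright probe, at chr4:135428407-135428729, leaves out.

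In deposited signals the difference of Rpl7a, Rpl19, Rpl23, Rpl7 and Rpl22l1 still passed, and those of Rpl11 (0.40, adjusted p = 0.076) and Rpl13 (0.23, adjusted p = 0.289) did not. For Rpl22l1, whose dim probe lay at 6.9 in brightness, the difference was 0.45 in deposited signals. With the trends removed it was -0.0002 (limma, adjusted p = 0.999). The other genes that passed after loess were Rpl35a at 0.29, Rpl22l1 at 0.24, Rpl17 at 0.20, Rpl23a at 0.18 and Rpl29 at 0.15. At the other end, the bright probe had the smaller ratio without passing in Rpl21, at -0.10, Rpl31, at -0.09 and below 0 on every array (95% confidence interval -0.17 to -0.005; limma, adjusted p = 0.091), Rpl36, at -0.06, and Rpl6, at -0.04. Rpl10, Rpl24, Rpl27a and Rpl37 had differences between -0.02 and 0.01. The 95% confidence interval for Rpl10 ran from -0.11 to 0.07 and for Rpl37 from -0.12 to 0.08.

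Overlapping probes with differing letters gave like ratios in some genes and not in others. In Rpl35a the printed pair gave 0.26 and -0.06 at a brightness of 15.9 and 14.4. In Rpl36 it gave 0.13 and 0.19, both called higher, at 15.9 and 15.8; in deposited signals they were at 0.007 and -0.04, without passing. The higher Rpl35a probe was at 0.13 there and did not pass either. The Rpl10 pair gave 0.003 and -0.01 and the Rpl29 pair 0.009 and -0.04, and none of these 4 passed. Differences within these overlapping pairs were tested only for Rpl36 and Rpl10, whose overlapping probes are also the brightest and the dimmest, and neither passed.

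Probe position went with brightness too. Of the 77 tested probes, 26 spanned a gap in the genome. Of these, 18 were higher and 0 lower (0 lower at an unadjusted p under 0.05 in limma), with a median ratio of 0.27 and a brightness of 14.4 to 16.9. Of all tested probes, 14.2% were higher and 13.6% lower, and shares by position over the whole array were not computed. The 50 probes on contiguous coordinates had 21 higher and 6 lower, with a median of 0.09, and included probes down to 6.7 in brightness. Of the contiguous probes, 2 lay inside the gap of another probe of the gene, those of Rpl11 and Rpl35a, with brightness of 9.4 and 6.7, and neither passed. All 39 higher probes were listed under RefSeq mRNA accessions, which 69 tested probes carried. The 8 listed under cDNA clones or predicted transcripts had 0 higher (0 at an unadjusted p under 0.05 in limma) and 3 lower. Their median brightness was 9.1, beside 15.8 for the 69, and a part of the accession type in the calls was not tested.

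Small-subunit genes, the members' partners in the ribosome, were mostly higher too. Of 32 genes by their brightest probe, 24 were higher and 1 lower, against 14.8% and 12.8% of all genes. Their median ratio was 0.33 and their median brightness 16.2. The large subunit had 34 higher and 2 lower of 48, with a median of 0.23 at 15.9. Among all tested probes outside the large subunit, 88.7% of those over 16 in brightness were higher, and 41.1% of those between 15 and 16. These shares include the small-subunit probes themselves. In deposited signals 9 small-subunit genes were higher and 3 lower, where 10.8% and 8.96% of all tested probes were.

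Factors that make ribosomal RNA or assemble and export ribosomal subunits, mostly the large one, were more often lower than higher. Of 48 such genes, a list taken from general knowledge of the pathway, 3 were higher and 15 lower, against 14.8% and 12.8% of all genes, with a median of -0.06 and a median brightness of 12.3. Other tested probes between 12 and 14 in brightness were also more often lower, 22.8% against 12.7% higher, with a median of -0.03. In deposited signals 1 was higher and 7 were lower, and without replicate 2 or 4 the count of lower genes was 8 or 7. The lowest was Ubtf, the activator of RNA polymerase I transcription, at -0.33 ± 0.08 (SD, n = 4; limma, adjusted p = 0.00113), followed by Mak16 at -0.27 ± 0.03 and the nucleolin gene Ncl at -0.21 ± 0.19. The higher ones were Gnl2 at 0.23 ± 0.04, Npm1, which encodes nucleophosmin, at 0.22 ± 0.12 and Nvl at 0.17 ± 0.15, which did not pass in deposited signals (0.20, adjusted p = 0.138). Npm1 and Ncl were equally bright, at 16.1, and went opposite ways; in deposited signals Npm1 was at -0.07 without passing and Ncl at -0.37, called lower.

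The cells carried the markers of their labelled type. Both channels of every array held all 7 melanoma markers well above background, with brightness of 10.2 to 16.8. Of the leukocyte markers 2 of 5 were, at 6.4 to 7.5 over the whole list, of the fibroblast markers 2 of 4, at 6.5 to 11.9, and of the endothelial markers none of 3, at 6.4 to 6.6. In a cultured line, more mRNA per cell and a larger share of cells expressing a gene cannot be told apart.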

How the data were processed

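Per the file headers, the scanner output was made with Agilent Feature Extraction (version 9.5.1.1; the submitters' processing notes give 9) and gives the intensity of every spot in both channels on a linear scale. A deposited table of log10 ratios (Cy5 over Cy3) matched the scanner's own ratios within 1e-06 for all 45018 spots of each array, with a median of 0 over non-control spots, which fixed scale and direction. Processed signals that the software had detrended and dye-normalised, per the file headers, were an alternative.

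Mean signals were corrected by normexp (offset 50) with the local background, then normalised within arrays by loess, to which control spots gave no weight. Spots marked as outliers were dropped before averaging by probe. Log2 ratios were tested with limma 3.58.1 in R 4.3.3 (two-sided, 95% confidence intervals), after a check on simulated data. The trend alternative used a spline of 5 degrees of freedom on brightness. All arrays lay on 1 slide, so no batch was fitted. With 4 arrays the precision is limited, and a p-value reflects how passages of this line vary.

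Members, lists and the rule for named genes were chosen with earlier results of these data known. The rule takes the 6 highest and 6 lowest tested probes, the stalk, 5S-related, core, tunnel and paralog genes, and the 6 largest bright-minus-dim differences; of its paralogs, Rpl10l and Rpl39l were not analysed here.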

Additional observations from a re-analysis of the deposited data

Results flagged for a closer look

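In 5 member probes, a single array stood apart from the other 3 by Dixon's criterion, out of 99 probes and probe pairs examined; chance gives about 1 in 20. Rpl5 was at 0.79 in replicate 1 and between 0.48 and 0.52 elsewhere. Rpl38 was at 0.65 in replicate 1 and between 0.49 and 0.51 elsewhere. Rpl8 was at 0.46 in replicate 2 and between 0.54 and 0.55 elsewhere. Rpl6 was at 0.093 in replicate 2 and at 0.22 elsewhere, by its brightest probe. Rpl15 was at 0.23 in replicate 4 and between 0.08 and 0.10 elsewhere. All 5 values have the sign of the other arrays.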

How the results depend on the processing

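For the 28 named probes and 6 probe pairs, 434 of 514 values under an alternative kept their direction and their side of the threshold. For the 10 counts of groups, 86 of 126 stayed within 1.5 times the value in the report, and 40 did not. With deposited processed signals, 12 member probes and 12 member genes were higher and 5 pairs passed. In the other lists, 9 small-subunit genes were higher and 3 lower, and 1 assembly factor was higher and 7 lower. Of all tested probes, 10.8% were higher and 8.96% lower there. Rpl3 turned to -0.16 and Rpl36a to -0.047. With median centring, limma called 0 member probes, genes, small-subunit genes or assembly factors in either direction, and 4 pairs. Without adjustment, 50, 39, 29 and 2 were higher and 0 lower in each, beside 968 higher and 38 lower of all 26545 tested probes. Rplp0 was then at 0.47, Rpl4 at 0.35, the dim Rpl7 probe at 0.17 and the dim Rpl7l1 probe at 0.16. Each lay below the median of other tested probes in its band of brightness. Those medians were 0.71 between 15 and 16 (Rplp0 and Rpl4), 0.51 between 14 and 15 (Rpl7) and 0.28 between 10 and 12 (Rpl7l1). With the channels fitted separately, which drops the pairing of samples on an array (no replicate block), 22 probes were higher and 1 lower, 22 genes higher and none lower (0 by limma, or 2 without adjustment), and 4 pairs passed. Of all 26545 tested probes, 330 were higher and 252 lower in that setting, and 365 of all 6053 pairs passed in either direction. With trends on brightness and base counts removed, 24 probes and 22 genes were higher, 4 genes lower, and 5 pairs passed. Of all tested probes, 13% were higher and 13.1% lower in that setting. With low-gain spots left out, chosen after seeing the data, 1 of 16 probes was higher and 3 lower. Of all 25060 probes tested that way, 3245 were higher and 3354 lower. Among the members 1 of 13 genes was higher, and 0 of 3 pairs passed (limma, 0 at an unadjusted p under 0.05). Fewer probes were tested. With the dimmest probe per gene, 6 genes were lower. The cause of the other shifts was not tested.

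Leaving out each replicate in turn gave 31 to 37 higher and 2 to 7 lower probes, 28 to 32 higher and 1 to 2 lower genes, 7 to 10 pairs, 0 to 1 lower small-subunit genes and 7 to 11 lower assembly factors. Of all 26545 tested probes, 2142 to 3515 were then higher and 2080 to 2736 lower. The comparison restricted to coding sequence was not run. The lowest signals limit the dim probes, and the shared dye orientation limits every ratio.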
